A study of Homo sapiens with 24 samples.

Results

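The values described here come from 6 of the 24 arrays of a study of 2 human osteosarcoma cell lines. They are the 3 arrays of U2-OS cells treated with 100 nM THZ2 for 6 h and the 3 arrays of U2-OS cells treated with DMSO, the solvent control, for the same time, and they were chosen by the line, agent and dose in the sample titles. U2-OS is an established line from a human bone tumour. Both groups were kept in serum-containing medium that was replaced when the compound or the solvent was added, and both belong to one set of jointly normalized arrays. The 3 U2-OS arrays with 25 nM THZ2 were used for comparison and were taken to share that set. The 6 arrays of SJSA-1, another established osteosarcoma line, with 100 nM THZ2 or DMSO for 6 h, were also used for comparison. The remaining arrays hold 25 nM in SJSA-1 and 400 nM in both lines, and the 400 nM arrays of U2-OS had been normalized apart from the 6 arrays. The labels do not say whether the 3 arrays of a group came from separate cultures, so the spread between arrays may be technical. The p-values and standard errors rest on a spread within groups pooled over all 24 arrays, those of SJSA-1 included. The median SD of log2 over genes was 0.056 with DMSO and 0.093 with 100 nM in U2-OS. In the SJSA-1 groups it was 0.125 to 0.175. In bulk RNA, fewer cells of a type and less RNA per cell cannot be told apart.

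THZ2 is a covalent inhibitor of CDK7. CDK7 forms a kinase complex with cyclin H and MAT1 that belongs to the general transcription factor TFIIH, where it phosphorylates the tail of RNA polymerase II, and it also activates the kinases that drive the cell cycle. An array reads how much of an RNA is present, which depends on its synthesis and on its decay.

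Each gene was read by its brightest probe set, on a linear intensity scale. Changes are given as log2 of the intensity with THZ2 minus that with DMSO, with ± for the standard error of the limma fit, whereas ± after an intensity is the SD over 3 arrays. "Rose" and "fell" are kept for genes with a Benjamini-Hochberg adjusted p under 0.05 in that fit. Of 18132 genes on the array, 16164 passed a filter on dim genes, a mean intensity of at least 12.73 in any group. With 3 arrays a group, precision is limited by their number.

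The 6 arrays fell into their labelled groups. On the first principal component of the 9 jointly normalized U2-OS arrays, which held 87.3% of the variance, the 3 arrays with 100 nM lay between 39.8 and 44.1 and the 3 with DMSO between -23.2 and -19.9, beside the 25 nM arrays at -22.0 to -18.7. The median intensity per array was 33.8 to 34.5 with THZ2 and 34.1 to 34.2 with DMSO. The poly-A spike-ins, control transcripts added to the RNA before labelling, were higher with THZ2 by 0.50 (log2), at 6.08 to 6.14 with THZ2 and 5.57 to 5.63 with DMSO. When these spike-ins were used to centre the arrays, this moved the median change of all genes from 0.093 to -0.41, so that a change between 0 and 0.50 on the deposited scale has the opposite sign on the spike-in scale. Of the rises named below, those of BAMBI, BBC3, CCNT2, CPSF6, FANCM, GTF2B, JAG1, MED18, MSX1, MXI1, NFKB1, NFKBIA, PMAIP1, POLR2A, PPM1D, SNORA74A, SNORA84, TNF and ZMAT3 kept their sign and did not pass on that scale. The markers VIM (mean 6608 with THZ2 and 6927 with DMSO), LGALS1 and SPARC of mesenchymal lines were bright, while NT5E, COL1A2 and TWIST1 lay under the filter intensity in both groups. One protocol field of the labels names an extraction from another tissue, so markers of other tissues were read as well. Both group means lay under 12.73 for 3 of 12 epithelial markers, 2 of 10 of blood, 1 of 12 of nervous tissue and 2 of 8 of endothelium, among them CDH1, PTPRC, AQP4 and EMCN. The brightest of the others were NEFL (470 with THZ2 and 418 with DMSO), CLDN4 (171 and 136), LCP1 (100.3 and 90.8), GFAP (96.3 and 84.2) and VWF (76.1 and 56.9). The summed level of the nervous tissue list was 877 to 919 with THZ2 and 777 to 815 with DMSO, that of the epithelial list 448 to 497 and 378 to 403, that of the blood list 376 to 406 and 332 to 347, and that of the endothelial list 199 to 220 and 175 to 181. Of the 37 tested members of these 4 lists 7 rose and 0 fell, beside 15.5% rises and 21.1% falls of all genes. The list medians lay between 0.16 and 0.23, close to the median of 0.17 of all genes with a mean intensity between 16 and 32. The brightest members named above lie at higher intensities. There the medians of all genes were -0.02 at 64 to 128, -0.06 at 128 to 256 and -0.02 at 256 to 512. The part of these markers in small rises elsewhere was not tested.

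**Figure D1:**
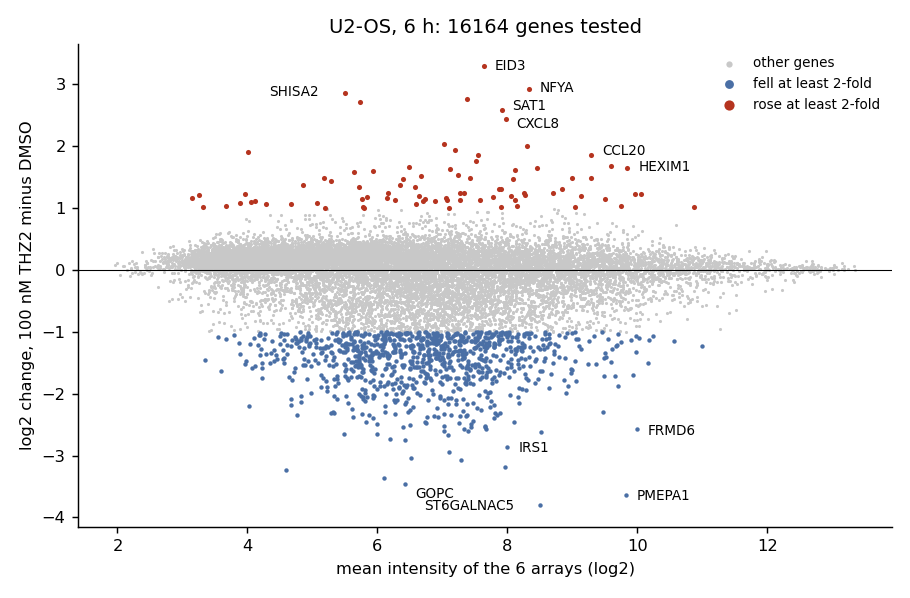
Change of each of the 16164 tested genes (vertical axis, log2) against its mean intensity over the 6 arrays (horizontal axis, log2). Each point is a gene. The 947 genes that fell by at least 2-fold (blue) reach -3.80 and the 84 that rose by at least 2-fold (red) reach 3.30.

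The question put by this comparison is which RNAs change when U2-OS cells meet the inhibitor for 6 h. Of the 16164 genes 3406 fell, or 21.1%, and 2504 rose, or 15.5%. Large changes were mostly falls. A fitted fall of at least 2-fold was found for 947 genes, or 5.86%, and a rise of that size for 84, or 0.52%. With a dim group raised to the filter intensity of 12.73 these counts were 931 and 75. On the spike-in scale 3719 genes fell and 40 rose, and with joint quantile normalization of all arrays 3266 fell and 3958 rose. In a fit to the 9 jointly normalized U2-OS arrays alone 4407 genes fell and 5714 rose, with the same 947 and 84 past 2-fold. The counts of large changes were lower where a constant was added to the intensities or where a gene's probe sets were averaged.

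The largest fall was that of ST6GALNAC5, which adds sialic acid to gangliosides. Its intensity was 50.7, 50.4 and 44.6 on the 3 arrays with THZ2, against 646, 693 and 683 with DMSO. All 5 of its probe sets were lower, and it fell by 3.80 ± 0.16 (limma adjusted p = 9.7e-17), a 13.9-fold difference between groups that lay far apart. PMEPA1, a gene induced by TGF-beta that dampens the same pathway, had 123, 151 and 134 with THZ2, against 1737, 1636 and 1666 with DMSO. Its fall was 3.63 ± 0.15, 12.4-fold, with all 3 probe sets lower. GOPC, a Golgi protein that sorts membrane proteins, averaged 14.5 ± 2.04 with THZ2 and 157 ± 6.95 with DMSO and fell by 3.45 ± 0.17.

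The other genes among the 12 largest falls belong to several kinds of protein. IRS1, the adaptor that passes insulin and IGF signals on, had 66.1, 60.7 and 59.5 with THZ2, against 430, 468 and 454 with DMSO, and fell by 2.86 ± 0.16. FOSL1, which encodes the AP-1 subunit FRA1, had 23.3, 22.4 and 21.4 with THZ2, against 159, 158 and 135 with DMSO, and fell by 2.75 ± 0.16. Neither gene's groups overlapped, which was a condition for naming both genes. ZBED5, which derives from a transposon, averaged 49.9 ± 4.34 with THZ2 and 451 ± 5.65 with DMSO and fell by 3.18 ± 0.18. ZNRF3, a membrane E3 ligase that removes Wnt receptors, was dim with THZ2 at 4.66 ± 0.23, against 43.8 ± 1.22 with DMSO, and was at least 3.44-fold lower. The zinc finger gene ZNF232 fell by 3.04 ± 0.11, YAE1 by 2.95 ± 0.17 and the helicase gene DHX32 by 2.73 ± 0.14. INTS6 and TUBGCP3 were less uniform. INTS6, a subunit of the Integrator complex, had 12.3 ± 2.76 with THZ2 and 125 ± 2.91 with DMSO, at least 9.19-fold lower, but 3 of its 7 probe sets were higher with THZ2. TUBGCP3, of the gamma-tubulin complex, fell by 3.07 ± 0.10, with 1 of 5 probe sets called the other way.

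The largest rise was that of EID3, a subunit of the SMC5/6 complex. It had 342, 369 and 380 with THZ2, against 37.5, 36.6 and 36.7 with DMSO. With its single probe set it rose by 3.30 ± 0.13 (limma adjusted p = 1.6e-17), 9.84-fold. SAT1, which limits the rate of polyamine breakdown, had 405, 413 and 419 with THZ2, against 63.3, 73.0 and 70.7 with DMSO, and rose by 2.58 ± 0.08 with all 3 probe sets higher. SHISA2, whose product holds back FGF and Wnt receptors, averaged 79.4 ± 9.82 with THZ2 and a dim 10.8 ± 0.40 with DMSO, and was at least 6.21-fold higher. C11orf96 rose by 2.76 ± 0.10 and SGK1, a kinase that serum and glucocorticoids induce, by 2.01 ± 0.14. SGK1 averaged 508 ± 19.1 with THZ2 and 126 ± 9.76 with DMSO, with all 4 probe sets higher.

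For NFYA the probe sets disagreed. The brightest one of this gene, a subunit of the CCAAT-binding factor, had 510, 610 and 588 with THZ2 and 73.9, 76.2 and 73.2 with DMSO, a rise of 2.93 ± 0.18. Its other 3 probe sets were lower with THZ2, down to -1.60, and 2 of them were called. SNAPC3, of the complex that transcribes small nuclear RNAs, rose by 2.04 ± 0.13 with 2 of 5 probe sets slightly lower. Among all 9901 genes with several tested probe sets, 429 had probe sets called in both directions, so a value here is that of the probe set, which can cover some of a gene's transcripts. With a gene's probe sets averaged, the calls of CDK12, CDK13, DUSP1, ERCC3, MET, NFYA, PHLDA1, RUNX2, SSU72 and TEAD1 did not pass.

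**Figure D2:**
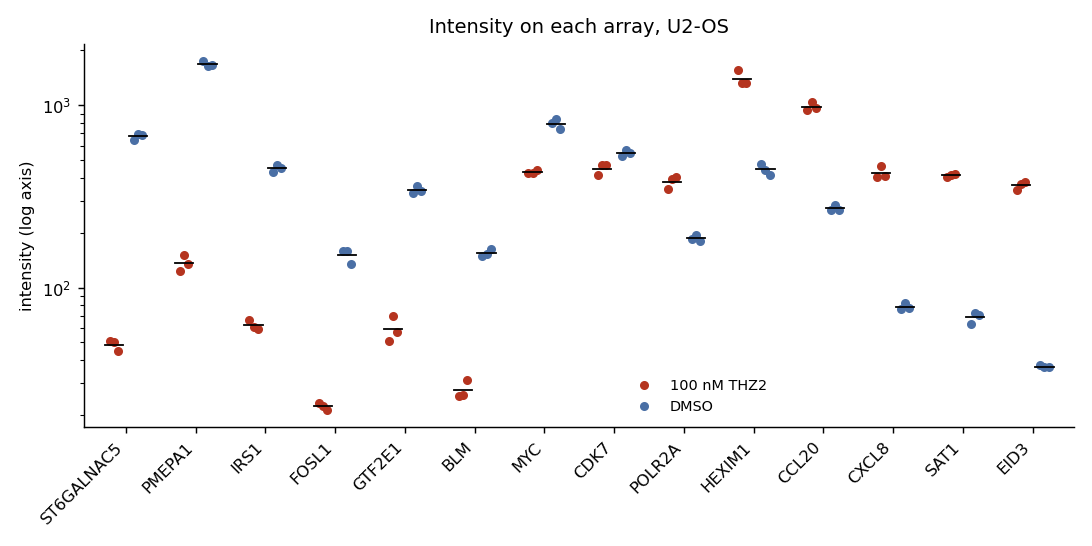
Intensity of 14 genes on each of the 6 U2-OS arrays (vertical log axis), with 100 nM THZ2 left of DMSO for each gene. Points are arrays and bars are group means. The groups do not overlap for any gene shown, which was a condition for naming the largest falls and rises and the list members chosen by rule. It was not set for the fixed set around CDK7, for dose step and line difference genes, or for genes picked later. CDK7 lies closest together at 449 with THZ2 and 547 with DMSO.

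The targeted kinase was read first among the transcription genes. CDK7 had 412, 467 and 469 with THZ2, against 528, 565 and 549 with DMSO. It fell by 0.29 ± 0.11 (limma adjusted p = 0.042), a call lost under median centring, without an intensity trend and when any 1 of the 6 arrays was left out, at -0.32 to -0.23. Its partners moved little as well. MNAT1, which encodes MAT1, averaged 314 ± 33.2 with THZ2 and 391 ± 6.48 with DMSO and fell by 0.32 ± 0.09, though it did not pass without THZ2 replicate 1, at -0.23. CCNH, which encodes cyclin H, differed by 0.17 ± 0.11 and did not pass. Among the other subunits of TFIIH, GTF2H1 had 90.1, 111 and 103 with THZ2, against 350, 353 and 350 with DMSO, and fell by 1.80 ± 0.10 with all 8 probe sets lower. The helicase subunit ERCC3 fell by 0.46 ± 0.11. The array thus held 4 falls and 1 rise among 8 tested genes of the complex, or 50% and 12.5%. Of all genes 21.1% fell and 15.5% rose. The rise in the complex was that of ERCC2 at 0.35 ± 0.11. That rise turned in sign on the spike-in scale and did not pass without THZ2 replicate 3 or DMSO replicate 2, at 0.31 and 0.33.

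The kinases that act on the elongating polymerase and their partners moved both ways, 8 up and 8 down of 25. That is 32% each way, beside 15.5% rises and 21.1% falls among all genes. P-TEFb, made of CDK9 and a cyclin T, is held inactive by HEXIM proteins bound to the 7SK RNA, and LARP7 and MEPCE stabilise that RNA. HEXIM1, the inhibitor, had 1558, 1317 and 1323 with THZ2, against 474, 442 and 416 with DMSO. It rose by 1.65 ± 0.11 (limma adjusted p = 1.6e-12), 3.15-fold, with all 5 probe sets higher. MEPCE, which caps 7SK, averaged 166 ± 9.44 with THZ2 and 452 ± 15.4 with DMSO and fell by 1.45 ± 0.13, and LARP7 fell by 0.67 ± 0.12. CDK9 itself fell by 0.74 ± 0.13, at 155, 121 and 135 with THZ2 and 240, 224 and 218 with DMSO. Its cyclin partner CCNT2 rose by 1.14 ± 0.12, with 1 of 3 probe sets lower. The 2 kinases that phosphorylate the polymerase late in elongation went apart. CDK13 fell by 0.80 ± 0.16, whereas CDK12 rose by 0.37 ± 0.11, a sign that turned on the spike-in scale, and did not pass without THZ2 replicate 1, at 0.32.

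Among RNA polymerase II subunits and general factors 11 of 35 fell, or 31.4% beside 21.1% of all genes, and 5 rose, or 14.3% beside 15.5%. POLR2A, the catalytic subunit whose tail CDK7 phosphorylates, had 346, 393 and 404 with THZ2, against 183, 194 and 181 with DMSO, and rose by 1.03 ± 0.12 (limma adjusted p = 1.0e-07), or 0.53 with no call on the spike-in scale. GTF2E1, the large subunit of TFIIE, which recruits TFIIH, had 51.0, 69.6 and 57.3 with THZ2, against 331, 359 and 338 with DMSO. It fell by 2.54 ± 0.16, 5.83-fold, with its other probe set higher at 0.34, with no call. GTF2B, which places the polymerase at the start site, rose by 0.72 ± 0.12, and the TFIID subunit TAF5 fell by 1.45 ± 0.13. In Mediator, the complex that bridges factors and polymerase, 13 of 31 fell, or 41.9% beside 21.1% of all genes. Another 3 rose, or 9.68% beside 15.5%, and 7 of the falls went past 2-fold. MED13 of its kinase module averaged 99.4 ± 7.32 with THZ2 and 336 ± 9.33 with DMSO, and that module's kinase CDK8 averaged 105 ± 1.64 and 289 ± 13.7. They fell by 1.76 ± 0.14 and 1.46 ± 0.11. MED7 fell by 1.56 ± 0.14, and MED18 rose by 0.76 ± 0.17.

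RNA 3′ end formation showed more falls. Of 35 cleavage, polyadenylation and Integrator genes 18 fell, or 51.4% beside 21.1% of all genes. Another 4 rose, or 11.4% beside 15.5%, and the median was -0.33. INTS2 fell by 1.39 ± 0.22 and CSTF2T, a subunit of the cleavage stimulation factor, by 1.31 ± 0.17, whereas CPSF6, of cleavage factor I, rose by 0.51 ± 0.09, and stood near 0 on the spike-in scale. Among SR proteins and the CLK kinases that phosphorylate them 8 of 22 rose, or 36.4% beside 15.5% of all genes. Another 7 fell, or 31.8% beside 21.1%. RSRP1, a serine and arginine rich nuclear protein, had 566, 527 and 510 with THZ2, against 174, 177 and 158 with DMSO, and rose by 1.65 ± 0.14. SRSF4 fell by 1.05 ± 0.10 and CLK2 by 0.93 ± 0.11.

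**Figure D3:**
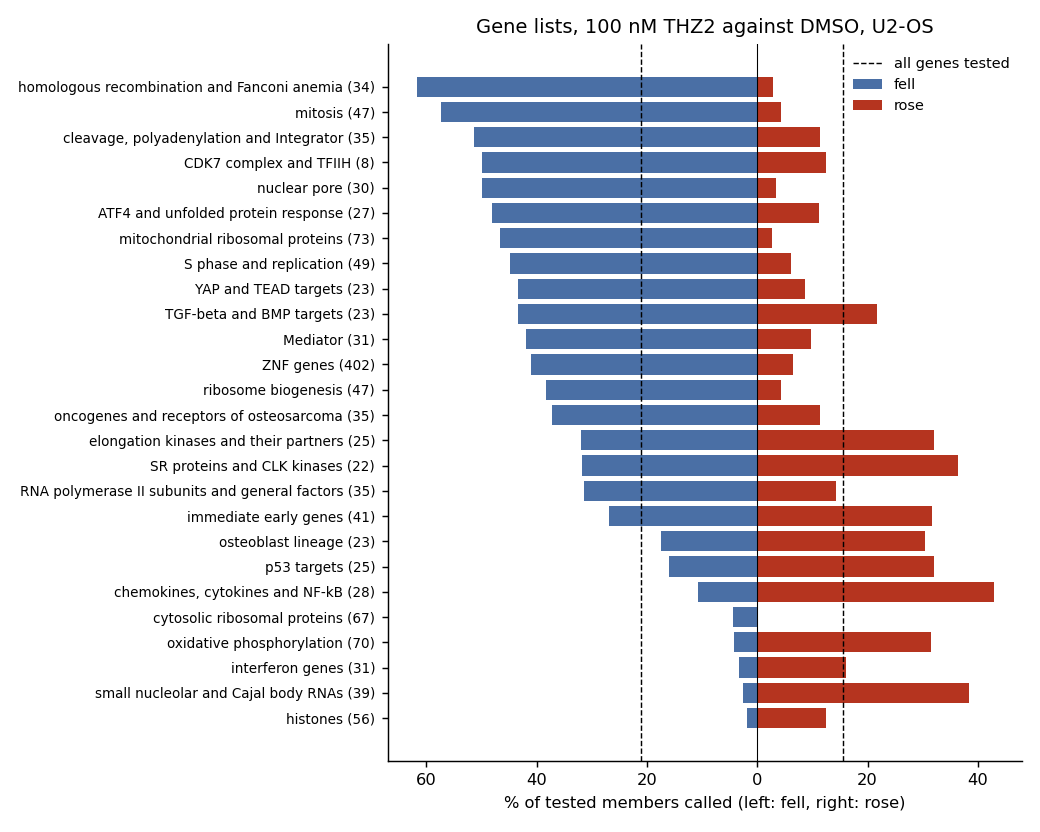
Share of the tested members of 26 gene lists that fell (left, blue) or rose (right, red) with 100 nM THZ2 against DMSO, with the number of members tested in parentheses. The dashed lines are the shares among all genes tested, 21.1% fell and 15.5% rose. Genes of homologous recombination and mitosis lie at the top, and chemokine, cytokine and NF-kB genes have the largest share that rose.

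Chemokine, cytokine and NF-kB genes rose more often than they fell. NF-kB factors are held in the cytoplasm by IkB proteins, and once free they switch on chemokines as well as their own inhibitors. Of 28 tested genes of this list 12 rose, or 42.9% beside 15.5% of all genes, and 3 fell. At least 2-fold was reached by 5 of them with dim groups raised to the filter intensity, and by 7 as fitted. The median was 0.21 as fitted, 0.17 with dim genes at their bound, and -0.29 on the spike-in scale. CXCL8, the neutrophil attractant interleukin 8, had 404, 462 and 410 with THZ2, against 76.3, 81.9 and 77.1 with DMSO. It rose by 2.44 ± 0.09 (limma adjusted p = 2.9e-18), 5.41-fold, with all 3 probe sets higher. CCL2, which attracts monocytes, had 257, 319 and 309 with THZ2, against 83.2, 81.2 and 78.1 with DMSO, and rose by 1.86 ± 0.13. CCL20, the ligand of CCR6, had 943, 1037 and 967 with THZ2, against 267, 283 and 265 with DMSO, and rose by 1.85 ± 0.14. CXCL3 and TNF were dim with DMSO and were at least 1.97-fold and 1.78-fold higher with THZ2.

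Other members of the list, among them genes of IkB proteins, moved both ways. TNFAIP3, which encodes the ubiquitin-editing enzyme A20, had 112, 118 and 121 with THZ2, against 45.5, 44.3 and 45.9 with DMSO, and rose by 1.37 ± 0.14. NFKBIZ, a nuclear IkB protein, rose by 1.31 ± 0.17, at 342 ± 12.8 with THZ2 and 138 ± 4.40 with DMSO. NFKBIA, which encodes IkB alpha, had 529, 611 and 609 with THZ2, against 302, 297 and 290 with DMSO, and rose by 0.97 ± 0.09, or 0.47 with no call on the spike-in scale. NFKB1, which encodes the p50 precursor, rose by 0.79 ± 0.12. Among the other IkB genes NFKBIE fell by 0.91 ± 0.15, and NFKBIB differed by -0.18 ± 0.09 and did not pass. The cytokine LIF fell by 0.63 ± 0.12. CXCL3, TNF, NFKBIA, NFKBIB, NFKBIZ and NFKB1 were picked from the list after their values were seen.

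U2-OS and SJSA-1 differed in many genes of this list. Over all genes, 1525, or 9.43%, had a higher change in U2-OS than in SJSA-1 at 100 nM and 965, or 5.97%, a lower one, a split of 1269 and 1282 with each array centred on its median. Of the 28 list members 19 had a higher change in U2-OS and 0 a lower one, and of the 23 above 12.73 in every group of both lines 17 and 0. Over all genes with such levels, 11893 in number, these counts were 1341 and 750. CXCL8 differed between the lines by 2.77 ± 0.12 (limma adjusted p = 5.4e-15), with changes of 2.44 in U2-OS and -0.33 in SJSA-1. NFKBIZ differed by 2.61 ± 0.24, TNFAIP3 by 2.16 ± 0.20, CCL2 by 1.72 ± 0.18 and NFKBIA by 1.52 ± 0.13. CCL20 did not pass, at 1.85 in U2-OS and 1.77 in SJSA-1. LIF, at -0.63 in U2-OS and -1.94 in SJSA-1, fell in both lines and is also among the 19. On the spike-in scale 66 genes in all had a higher and 22 a lower change in U2-OS, and the count for the list was not repeated on that scale.

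**Figure D4:**
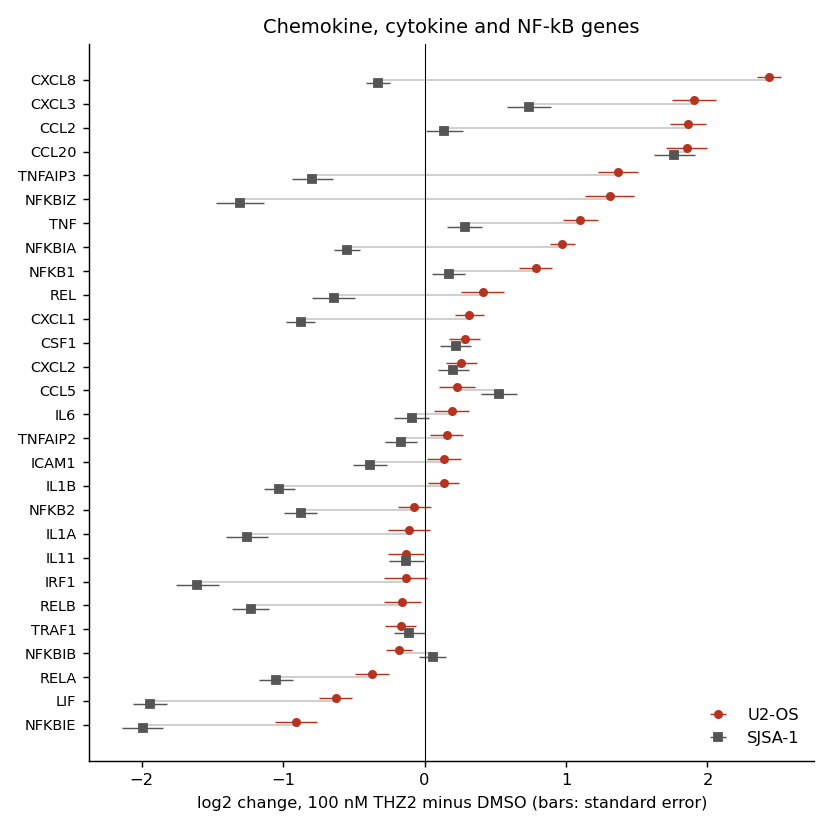
Change of 28 chemokine, cytokine and NF-kB genes with 100 nM THZ2 against DMSO (horizontal axis, log2), ordered by the change in U2-OS. Red circles are U2-OS, grey squares below them SJSA-1, and bars are standard errors. CXCL8 lies at 2.44 in U2-OS and -0.33 in SJSA-1, while CCL20 lies at 1.85 and 1.77.

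The stretch around the start site of 7 genes is shown to set the sequence beside the change, 5 that rose and then 2 with large falls. Each window runs from 100 bases before to 20 after the RefSeq start of GRCh38.p14. Capitals mark the letters TATAAA, the core of a TATA box, and a common NF-kB site, GGG and TTTCC with 2 bases of any kind between them, each searched on both strands. Both motifs were picked after the values were seen.
CXCL8 (chr4:73740469-73740588, plus strand): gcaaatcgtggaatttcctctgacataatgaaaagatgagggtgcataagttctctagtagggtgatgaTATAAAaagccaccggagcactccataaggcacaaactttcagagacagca
CCL20 (chr2:227813742-227813861, plus strand): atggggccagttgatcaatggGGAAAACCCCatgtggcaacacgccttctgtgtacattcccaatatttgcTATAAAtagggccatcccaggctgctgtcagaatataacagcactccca
NFKBIA (chr14:35404730-35404849, minus strand): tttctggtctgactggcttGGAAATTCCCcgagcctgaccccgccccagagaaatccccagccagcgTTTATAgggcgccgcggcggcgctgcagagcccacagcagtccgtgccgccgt
TNFAIP3 (chr6:137867159-137867278, plus strand): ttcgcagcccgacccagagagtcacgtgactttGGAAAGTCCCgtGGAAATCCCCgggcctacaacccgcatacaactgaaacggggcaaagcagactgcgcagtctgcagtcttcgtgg
HEXIM1 (chr17:45148375-45148494, plus strand): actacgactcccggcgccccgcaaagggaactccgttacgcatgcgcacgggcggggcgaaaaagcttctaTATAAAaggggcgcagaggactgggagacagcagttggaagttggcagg
ST6GALNAC5 (chr1:76867380-76867499, plus strand): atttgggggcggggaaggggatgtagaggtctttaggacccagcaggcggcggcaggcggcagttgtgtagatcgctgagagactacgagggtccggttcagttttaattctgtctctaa
IRS1 (chr2:226799801-226799920, minus strand): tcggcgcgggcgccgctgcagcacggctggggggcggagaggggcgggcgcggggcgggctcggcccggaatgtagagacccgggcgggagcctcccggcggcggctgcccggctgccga
The TATAAA letters begin 31 bases before the start of CXCL8, and 29 before those of CCL20 and HEXIM1. The windows of CXCL8 and HEXIM1 hold no exact match to the NF-kB pattern, and looser matches to it were not searched. The windows of ST6GALNAC5 and IRS1 hold neither motif. In each case this says only that these letters are not there.

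The motif was then counted over whole promoters, from 250 bases before to 50 after the start, for genes with 1 RefSeq start. TATAAA was present in 12 of the 48 such genes that rose by at least 2-fold, or 25.0%, in 17 of the 556 that fell by at least 2-fold, or 3.06%, and in 799 of all 9380, or 8.52%. The 12 include CXCL8, CCL20, HEXIM1, GADD45B, HSPA1B, JUNB and TNF. With the first listed start of every gene the shares were 23.8% of 63 risers, 3.91% of 819 fallers and 7.96% of 12920. The NF-kB site was present in 8 of 15 promoters of the chemokine, cytokine and NF-kB list, or 53.3%, beside 2.15% of all 9380, and known NF-kB genes are in that list by construction. These shares are descriptions of the windows, and the sets come from the same contrast.

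Immediate early genes, which growth factors and stress switch on within minutes, split into rises and falls, 13 and 11 of 41. That is 31.7% rises beside 15.5% of all genes, and 26.8% falls beside 21.1%. ATF3 averaged 136 ± 10.1 with THZ2 and 43.1 ± 2.42 with DMSO and rose by 1.66 ± 0.10. JUNB had 240, 219 and 215 with THZ2, against 75.7, 77.2 and 80.6 with DMSO, and rose by 1.53 ± 0.12. IER5L rose by 1.93 ± 0.17, and ID2, an inhibitor of basic helix-loop-helix factors, by 1.48 ± 0.19. FOSL1 was by far the largest fall of the list, and DUSP1, a phosphatase of MAP kinases, fell by 1.07 ± 0.13 with 2 of 4 probe sets higher. FOS had 118, 102 and 99.9 with THZ2, against 86.8, 76.7 and 86.8 with DMSO, a difference of 0.35 ± 0.15 that did not pass, while the mean of its probe sets rose by 1.26. FOS was chosen after its values were seen.

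MYC, the growth-promoting transcription factor, had 425, 423 and 439 with THZ2, against 796, 839 and 742 with DMSO. It fell by 0.88 ± 0.14 (limma adjusted p = 8.2e-06), while it rose by 1.25 in SJSA-1, a line difference of -2.14 ± 0.20. Of the 12 genes of its network 4 fell, or 33.3% beside 21.1% of all genes, and 3 rose, or 25% beside 15.5%. MLX, a partner of the glucose sensor proteins, fell by 1.26 ± 0.10, and MXI1, which competes with MYC for MAX, rose by 0.70 ± 0.10.

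Several genes that guard against cell death fell. The antiapoptotic BCL2 family and the inhibitors of apoptosis held 4 falls and 0 rises in 10 genes, beside 21.1% falls and 15.5% rises of all genes, and 1 more was higher at an unadjusted p under 0.05. BCL2L2, which encodes BCL-w, had 83.5, 85.4 and 90.9 with THZ2, against 302, 296 and 288 with DMSO, and fell by 1.77 ± 0.09, although 2 of its 3 probe sets were higher, with no call. XIAP, which blocks caspases, had 62.1, 64.7 and 57.3 with THZ2, against 203, 211 and 209 with DMSO, and fell by 1.76 ± 0.15. MCL1, whose RNA and protein are short-lived, averaged 476 ± 24.7 with THZ2 and 662 ± 8.65 with DMSO and fell by 0.48 ± 0.15, with 1 of 6 probe sets called higher. Without THZ2 replicate 1 it did not pass, at -0.44. BIRC2 fell by 0.66 ± 0.13.

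Among the genes that promote cell death the BH3-only gene BBC3, which encodes PUMA, had 220, 312 and 293 with THZ2, against 148, 131 and 149 with DMSO, and rose by 0.93 ± 0.15. PMAIP1, which encodes NOXA and neutralises MCL1, had 1118, 1336 and 1118 with THZ2, against 802, 842 and 816 with DMSO and rose by 0.53 ± 0.08, or 0.03 with no call on the spike-in scale. Of 13 proapoptotic genes 4 rose, or 30.8% beside 15.5% of all genes, and 1 fell. Of 16 death receptor and caspase genes 5 fell, or 31.3% beside 21.1% of all genes, 1 rose and 10 did not pass, with a median of -0.09. TNFRSF10B, which encodes the TRAIL receptor DR5, had 67.5, 70.4 and 91.2 with THZ2, against 369, 375 and 380 with DMSO, and fell by 2.31 ± 0.13 with all 3 probe sets lower. FADD, which couples death receptors to caspases, averaged 107 ± 20.6 with THZ2 and 470 ± 8.12 with DMSO and fell by 2.15 ± 0.16, and the TNF receptor gene TNFRSF1A fell by 1.67 ± 0.13.

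The p53 targets did not move as one. Of 25 tested 8 rose, or 32% beside 15.5% of all genes, and 4 fell, or 16% beside 21.1%. The median of 0.01 lay under that of all genes. GADD45B, a stress gene, had 1367, 1452 and 1379 with THZ2, against 601, 582 and 605 with DMSO, and rose by 1.23 ± 0.09. ZMAT3, which binds RNA, rose by 1.20 ± 0.13, and the phosphatase gene PPM1D by 0.74 ± 0.13. CDKN1A, which encodes the cell cycle inhibitor p21, averaged 1001 ± 42.1 with THZ2 and 744 ± 28.0 with DMSO and rose by 0.43 ± 0.11, a sign that turned on the spike-in scale. TNFRSF10B and the nuclease gene AEN fell, AEN by 1.06 ± 0.12. MDM2, the ligase that degrades p53, differed by -0.12 ± 0.19 and did not pass, and 4 of its 11 probe sets were called higher.

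Genes of homologous recombination and the Fanconi anemia pathway, which repair double-strand breaks and crosslinks, had the largest share of falls among the 39 lists. Of 34 tested 21 fell, or 61.8% beside 21.1% of all genes, 10 of them by at least 2-fold, and 1 rose. The median was -0.53, and the summed level was 4368 to 4455 with THZ2 and 7124 to 7381 with DMSO. BLM, the helicase missing in Bloom syndrome, had 25.5, 25.7 and 31.0 with THZ2, against 150, 152 and 162 with DMSO, and fell by 2.50 ± 0.14. RMI1, its partner, fell by 1.95 ± 0.14. BARD1 fell by 1.89 ± 0.12, and its partner BRCA1, at 40.9, 39.5 and 55.1 with THZ2 and 123, 145 and 139 with DMSO, by 1.60 ± 0.13. FANCM was the 1 gene that rose, by 0.75 ± 0.16, but its other probe set fell, and the mean of both fell by 0.50.

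Cell cycle genes showed falls as well. Of 47 mitotic genes 27 fell, or 57.4% beside 21.1% of all genes, and 2 rose, or 4.26% beside 15.5%. Their median was -0.37. KNSTRN, which helps align chromosomes, had 97.7, 118 and 92.8 with THZ2, against 632, 645 and 616 with DMSO, and fell by 2.63 ± 0.09 (limma adjusted p = 2.2e-18). CENPA, the histone of the centromere, averaged 355 ± 19.6 with THZ2 and 1307 ± 28.1 with DMSO and fell by 1.88 ± 0.11, and the kinesin gene KIF14 fell by 1.90 ± 0.18. CENPW, also of the centromere, rose by 0.42 ± 0.07, a sign that turned on the spike-in scale. Of 49 S phase and replication genes 22 fell, or 44.9% beside 21.1% of all genes, and 3 rose, or 6.12% beside 15.5%. ORC5, of the origin recognition complex, had 51.0, 58.3 and 52.0 with THZ2, against 269, 290 and 269 with DMSO, and fell by 2.36 ± 0.13. E2F3, a driver of S phase entry, fell by 2.17 ± 0.12, and GINS1, of the replicative helicase, by 1.60 ± 0.08. CDK4, which starts the cycle in G1, was near its control at 1064 ± 66.9 with THZ2 and 1218 ± 17.3 with DMSO and fell by 0.20 ± 0.06, a call lost without THZ2 replicate 1, at -0.14.

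RUNX2, the master factor of osteoblasts, had 98.9, 80.8 and 87.4 with THZ2, against 143, 155 and 162 with DMSO. It fell by 0.78 ± 0.19 (limma adjusted p = 0.0020), and its other probe set was called higher. The osteoblast list as a whole held 7 rises in 23, or 30.4% beside 15.5% of all genes, and 4 falls, or 17.4% beside 21.1%. Among them MSX1 rose by 0.73 ± 0.12, and TNFRSF11B, the decoy receptor osteoprotegerin, fell by 0.81 ± 0.11. Among oncogenes and receptors tied to osteosarcoma 13 of 35 fell, or 37.1% beside 21.1% of all genes, and 4 rose, or 11.4% beside 15.5%. GLI2, a Hedgehog effector, averaged 47.7 ± 5.88 with THZ2 and 288 ± 8.36 with DMSO and fell by 2.60 ± 0.13, with 3 of 6 probe sets higher. The receptor gene MET fell by 0.90 ± 0.13, with 4 of 6 probe sets higher, while JAG1, a ligand of Notch, rose by 0.62 ± 0.11.

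Of 23 TGF-beta and BMP targets 10 fell, or 43.5% beside 21.1% of all genes, and 5 rose, or 21.7% beside 15.5%. Beside PMEPA1, the receptor gene TGFBR2 fell by 0.76 ± 0.11, and BAMBI, a pseudoreceptor that blocks the pathway, rose by 1.07 ± 0.11, at 132 ± 7.71 with THZ2 and 62.5 ± 2.45 with DMSO. Of 23 YAP and TEAD targets 10 fell, also 43.5% beside 21.1% of all genes, and 2 rose, or 8.70% beside 15.5%. FRMD6, an upstream regulator of Hippo signalling, had 289, 298 and 294 with THZ2, against 1722, 1745 and 1798 with DMSO, and fell by 2.58 ± 0.10, 5.97-fold. FJX1 fell by 1.17 ± 0.13, ANKRD1 by 1.06 ± 0.12 and the factor gene TEAD1 by 0.92 ± 0.14.

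Of 27 ATF4 and unfolded protein response genes 13 fell, or 48.1% beside 21.1% of all genes, and 3 rose. XBP1, a main factor of that response, had 109, 109 and 118 with THZ2, against 348, 344 and 341 with DMSO, and fell by 1.62 ± 0.12, and HERPUD1 fell by 0.81 ± 0.12. Of 21 heat shock genes 5 rose, or 23.8% beside 15.5% of all genes, and 4 fell, or 19.0% beside 21.1%. HSPA1B, an inducible HSP70, had 891, 964 and 927 with THZ2, against 335, 342 and 312 with DMSO, and rose by 1.49 ± 0.14, while the co-chaperone DNAJB1 fell by 0.88 ± 0.13. HSPA1B has a near-identical copy, so its signal may hold both.

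Genes of protein synthesis differed by compartment in how many were called, and also in level. The summed level with THZ2 was 395941 to 397726 over the cytosolic ribosomal protein genes and 47748 to 50374 over the mitochondrial ones. The part of level in the calls was not tested. Of 67 cytosolic ribosomal protein genes 0 rose and 3 fell in the limma fit, or 4.48% falls beside 21.1% of all genes. With an unadjusted p under 0.05, 5 were higher and 3 lower, and the median was 0.02. Of 73 mitochondrial ribosomal protein genes 34 fell, or 46.6% beside 21.1% of all genes, and 2 rose, or 2.74% beside 15.5%. Their median was -0.19. MRPL36 had 459, 466 and 441 with THZ2, against 1083, 1079 and 1150 with DMSO, and fell by 1.28 ± 0.08. Of 47 ribosome biogenesis genes 18 fell, or 38.3% beside 21.1% of all genes, and 2 rose, or 4.26% beside 15.5%. The falls were led by PPAN, which fell by 2.07 ± 0.14. Of 30 nuclear pore genes 15 fell, or 50% beside 21.1% of all genes, and 1 rose, or 3.33% beside 15.5%. NUP62, of the central channel, fell by 1.72 ± 0.11, at 379 ± 29.4 with THZ2 and 1243 ± 22.9 with DMSO. Of 70 oxidative phosphorylation genes 22 rose, or 31.4% beside 15.5% of all genes, and 3 fell, or 4.29% beside 21.1%. The rises were small, and the median of 0.13 for the list turned to -0.37 on the spike-in scale.

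Small nucleolar and Cajal body RNAs, which guide the modification of ribosomal and spliceosomal RNA, held 15 rises and 1 fall in 39, or 38.5% rises beside 15.5% of all genes. The median was 0.22 as fitted, 0.20 with dim genes at their bound, and -0.29 on the spike-in scale. SNORA65 had 81.4, 114 and 81.9 with THZ2, against 16.5, 13.5 and 12.1 with DMSO, and rose by 2.71 ± 0.19. SNORA26 rose by 1.24 ± 0.16 and SNORA74A by 1.09 ± 0.14. Whether these probe sets read the mature RNA or the host transcript was not tested. Their change was lower in U2-OS than in SJSA-1 for 16 of the 39 and higher for 0, beside 5.97% and 9.43% of all genes. Of the 26 above 12.73 in every group of both lines these counts were 13 and 0, beside 750 and 1341 of 11893 such genes. SNORA84 was at 0.89 in U2-OS and 3.08 in SJSA-1. The counts for this list were not repeated on the spike-in scale. Of 11 host genes of small nucleolar RNAs 5 fell, or 45.5% beside 21.1% of all genes, and 2 rose, or 18.2% beside 15.5%. SNHG7 fell, at 239 ± 27.8 with THZ2 and 828 ± 24.0 with DMSO, whereas SNHG17 rose by 1.33 ± 0.14. Of 402 genes named ZNF, most of them zinc finger transcription factors, 165 fell, or 41.0% beside 21.1% of all genes. Another 26 rose, or 6.47% beside 15.5%. Past 2-fold were 55 fitted falls, and 50 with dim groups raised to the filter intensity. Among all genes fitted falls past 2-fold made up 5.86%. ZNF518B averaged 58.9 ± 8.15 with THZ2 and 349 ± 14.1 with DMSO and fell by 2.57 ± 0.13.

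The length of a gene and its level both went with the share of large falls. Of genes that span under 3 kb in GRCh38.p14, 1.66% fell by at least 2-fold, beside 5.86% of all genes. The share was 4.71% at 3 to 10 kb, 4.80% at 10 to 30 kb, 7.14% at 30 to 100 kb, 9.23% at 100 to 300 kb and 6.00% over 300 kb. Large rises were most frequent under 3 kb, at 1.66%. By mean intensity over the 6 arrays, falls of at least 2-fold made up 0.446% of genes under 16 and 11.1% at 128 to 256, and 0.804% over 1024. Short genes were also dimmer, with a median DMSO intensity of 30.8 under 3 kb and 95.2 at 30 to 100 kb, and the part of level in the difference by length was not tested.

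**Figure D5:**
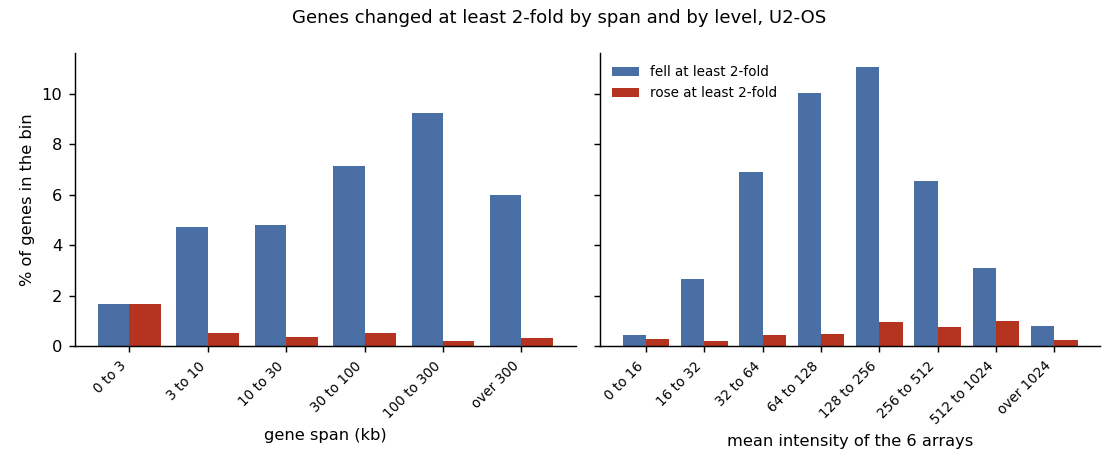
Share of genes that fell (blue) or rose (red) by at least 2-fold with 100 nM THZ2 against DMSO, by gene span (left) and by mean intensity over the 6 arrays (right). The share that fell is 1.66% under 3 kb and 9.23% at 100 to 300 kb, and 11.1% at an intensity of 128 to 256.

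Few genes were called at 25 nM against DMSO, and many differed between 25 and 100 nM. Higher doses were not compared here, so the response past 100 nM was not tested. At 25 nM 1 gene rose and 3 fell against DMSO in the fit to all arrays, with 220 higher and 225 lower at an unadjusted p under 0.05, and in the fit to the 9 arrays 160 rose and 107 fell. The 4 genes were CARD8, which rose by 0.72 ± 0.13, ASF1B and SSU72, which fell by 0.53 ± 0.10 and 0.44 ± 0.08, and KRCC1, which was dim at 8.05 ± 0.74 with 25 nM and 18.4 ± 4.80 with DMSO and at least 1.41-fold lower. They were named after their values were seen. Between 100 and 25 nM, 3571 genes were lower at 100 nM, or 22.1%, and 3203 higher, or 19.8%. ST6GALNAC5 read 589, 582 and 572 at 25 nM, below its DMSO arrays but more than 10 times its level at 100 nM, and the step from 25 to 100 nM was -3.58 ± 0.16 (limma adjusted p = 5.4e-16). EID3 read 40.6, 42.2 and 43.2 at 25 nM, and its step was 3.11 ± 0.13. CXCL8 read 80.0, 67.3 and 77.1 at 25 nM, within the range of its DMSO arrays on 2 arrays and under it on the other, and its step was 2.51 ± 0.09. HEXIM1 stood between, at 603, 577 and 541 with 25 nM, each above the DMSO arrays and under those with 100 nM, though its difference of 0.37 ± 0.11 from DMSO did not pass.

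Outside the chemokine list, several genes of U2-OS changed in another way than in SJSA-1 at 100 nM. ST6GALNAC5 and PMEPA1 fell further in U2-OS, with line differences of -1.89 ± 0.22 and -1.46 ± 0.22, at -3.80 in U2-OS and -1.91 in SJSA-1 for ST6GALNAC5 and at -3.63 in U2-OS and -2.17 in SJSA-1 for PMEPA1. EID3 rose further, by 2.20 ± 0.18 more than in SJSA-1. SHISA2 was at least 6.21-fold higher with THZ2 in U2-OS and differed by -0.19 in SJSA-1. CCDC62 averaged 46.1 ± 4.06 with THZ2 and 235 ± 7.84 with DMSO in U2-OS and lay under 12.73 in both groups of SJSA-1, as did SDR42E1, at 24.3 with THZ2 and 97.6 with DMSO in U2-OS. Several of the largest line differences came from genes that changed little or were dim in U2-OS. JPH2 differed by 0.03 ± 0.14 in U2-OS, beside -2.70 in SJSA-1. PHLDA1 rose by 0.49 ± 0.14 in U2-OS, a sign that turned on the spike-in scale, with -2.21 in SJSA-1. H2AC17, ZIC5 and BNC1 lay under 12.73 in both U2-OS groups, and ARIH2OS did so with DMSO. CDK7 and HEXIM1 had higher changes in U2-OS, by 0.73 ± 0.16 and 1.18 ± 0.16. FOSL1, ORC5 and GLI2 had small line differences of 0.03 ± 0.23, -0.02 ± 0.18 and -0.07 ± 0.18.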

How the data were processed

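RNA of U2-OS and SJSA-1 cells was read on PrimeView arrays. The authors deposited 1 normalized intensity per probe set and array on a linear scale, and MAS5 and RMA are named in the submitters' processing notes, with no role or version. The split into jointly normalized sets was read from values that arrays share. Intensities were turned into log2 here and fitted with limma 3.58.1 (R 4.3.3) over 24 arrays in 8 groups, with 16 residual degrees of freedom, an intensity trend and Benjamini-Hochberg adjustment. Each gene took its brightest probe set. Of 49372 probe sets, 44988 had 1 gene symbol, 1832 several and 2473 none, and those with several or none were not named. Genes under the 30th percentile of intensity in every group were left out.

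Genes were named by rule: a fixed set around CDK7, the 12 largest falls and rises, up to 4 and 2 members per list, with no overlap between groups and a mean of at least 32, and the 6 largest each way for dose step and line difference with 1 group mean of at least 32. The text names some of these. The members, the lists and the promoter motifs were chosen with earlier results of these data known. A bound ("at least") divides the geometric mean of the brighter group by that of the dimmer one with each array under 12.73 raised to it. Counts with dim groups raised in this way, or over genes above 12.73 in every group of both lines, were added after the data were seen. Alternatives were scaling, filter, probe set rule, added constant, trend, arrays in the fit, replicate block and leaving out arrays. Promoters and gene spans came from RefSeq, GRCh38.p14.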

Additional observations from a re-analysis of the deposited data

Results flagged for a closer look

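The change at 100 nM THZ2 differed between U2-OS and SJSA-1 for 68 of the genes named with a value, tested as the difference of the 2 changes in the limma fit with Benjamini-Hochberg adjustment over all genes tested. The values are the change in U2-OS minus that in SJSA-1 (log2), so a value above 0 means a higher change in U2-OS. For 9 of them a group of either line lay under the filter intensity of 12.73, which leaves only a bound, so that 59 are given here. Many of these genes were named for a large change in U2-OS or in the line difference itself, so their number describes the choice of genes.

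A higher change in U2-OS was found for 37 of the 59. Differences of at least 1 were those of CXCL8 2.77, JPH2 2.73, PHLDA1 2.70, NFKBIZ 2.61, EID3 2.20, TNFAIP3 2.16, CCL2 1.72, FADD 1.70, NFKBIA 1.52, BAMBI 1.39, LIF 1.31, HEXIM1 1.18, NFKBIE 1.08, CDK12 1.07, MED7 1.0 and CSTF2T 1.0. The others were NFYA 0.98, MCL1 0.90, SGK1 0.86, SNAPC3 0.81, DHX32 0.75, CARD8 0.75, BBC3 0.74, CDK7 0.73, NUP62 0.73, CENPA 0.69, TNFRSF1A 0.68, CDK13 0.67, AEN 0.62, MED13 0.62, NFKB1 0.62, DNAJB1 0.61, PPM1D 0.61, GTF2B 0.61, ZMAT3 0.59, XBP1 0.57 and CDKN1A 0.45.

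A lower change in U2-OS was found for 22. Differences past -1 were those of SNORA84 -2.19, MYC -2.14, ST6GALNAC5 -1.89, TNFRSF10B -1.58, PMEPA1 -1.46, SNORA65 -1.39, BCL2L2 -1.33, SNHG17 -1.31, RSRP1 -1.07, JAG1 -1.06 and GOPC -1.03. The others were FOS -0.99, FRMD6 -0.93, TUBGCP3 -0.84, C11orf96 -0.80, SNORA26 -0.73, TNFRSF11B -0.68, BRCA1 -0.67, XIAP -0.67, GINS1 -0.52, CPSF6 -0.46 and MNAT1 -0.43. On the spike-in scale 88 of all genes tested differed between the lines, beside 2490 on the deposited scale.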

How the results depend on the processing

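Counts of changed genes depended on the scaling and on the arrays in the fit. With the arrays centred on the spike-ins 3759 genes changed at 100 nM against DMSO, 2428 by at least 2-fold (24 rose and 2404 fell), 3511 differed between 100 and 25 nM (36 higher and 3475 lower) and 88 between the lines, against 5910, 1031, 6774 and 2490 on the deposited scale. In fits to the 9 U2-OS arrays 10121 changed and 11050 differed between the doses, and in fits to the groups of the contrast alone 9680 and 10373. Both fits kept all 2504 rises and 3406 falls. The count past 2-fold was 575 with a gene's probe sets averaged, 678 with 16 added to each intensity and 292 with 64 added. The cause of these shifts was not tested, except that an added constant shrinks the change of dim genes by construction. Leaving out 1 array gave 4488 to 5205 changed genes, 1004 to 1064 past 2-fold, 5012 to 6016 between doses and 1986 to 3000 between lines. The split of higher and lower calls between doses was 4321 and 3299 under quantile normalization.

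With a replicate block 5991 genes changed, 1031 by at least 2-fold, 6887 differed between doses and 2590 between lines. Same-numbered 100 nM and DMSO arrays had correlations of deviations of -0.030, 0.159 and -0.029, so the numbers were not taken to pair the arrays.

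Of 1755 values of named genes at 100 nM against DMSO, under settings other than leaving out an array, 7 turned in sign. On the spike-in scale CDK12 was at -0.14, CDKN1A at -0.075, CENPW at -0.086, ERCC2 at -0.16 and PHLDA1 at -0.013. With probe sets averaged FANCM was at -0.50 and CARD8, near 0 at 100 nM with its brightest probe set, at -0.44. Of the rest 34 no longer passed, 20 of them on the spike-in scale and 10 with probe sets averaged, and 16 newly passed. Signal near the background limits dim genes, and 3 arrays a group limit small changes.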
